A study of Mus musculus with 10 samples.

Results

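The lectin chaperones of the endoplasmic reticulum and their disulphide isomerases were followed here through 7 genes, the testis genes Clgn, Calr3 and Pdilt and the general paralogs Canx, Calr, P4hb and Pdia3. They were chosen by symbol among the 55401 genes of the count table, and each of the 7 matched 1 row. The RNA came from round spermatids, haploid cells that have left meiosis and not yet elongated, isolated from adult male CD1 mice. The testes of anaesthetised mice were held against water for 30 minutes, at 33 °C in 5 control mice and at 42 °C in 5 heated mice, with no genetic change in either group. Both groups had isoflurane, woke up and were killed straight afterwards, and each mouse gave 1 library.

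Newly made glycoproteins fold in the endoplasmic reticulum (ER) with the help of lectin chaperones, which hold them by their trimmed sugar chains until they are folded. Calnexin (Canx) is membrane-bound and calreticulin (Calr) is soluble, and both work with the disulphide isomerase ERp57 (Pdia3), while P4hb encodes the classical protein disulphide isomerase (PDI). Male germ cells add calmegin (Clgn), a membrane-bound relative of calnexin, calreticulin 3 (Calr3, also called calsperin) and Pdilt, a PDI-like protein without the usual catalytic cysteine pairs. In the mouse, loss of any of the 3 testis genes leaves sperm without mature ADAM3, a surface protein needed for passage into the oviduct.

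Total counts per library ran from 92311183 to 117723075 at 33 °C and from 60623568 to 102086073 at 42 °C. The shallowest library, 42 °C replicate 2, also had 16.2% of its counts on transposable elements, against at most 9.07% in the other 9. Summed markers of round spermatids were between 4811 and 7059 CPM (counts scaled to TMM-adjusted library sizes) in the 10 libraries. Those of elongating spermatids were between 5274 and 11360 CPM, and those of spermatocytes between 1072 and 1778 CPM. The elongating spermatid sum, taken over a different list of genes, was above the round spermatid sum in every library except 33 °C replicate 2. Single genes weighed heavily in both sums. Ldhc, in the round spermatid list, averaged 2653 CPM at 33 °C and 2431 CPM at 42 °C. Odf2, in the elongating spermatid list, averaged 2602 CPM at 33 °C and 2560 CPM at 42 °C. The sums therefore do not measure the share of cells of each stage. Summed markers were at most 14.95 CPM for Sertoli cells, 20.5 CPM for Leydig cells, 27.3 CPM for peritubular and stromal cells, 11.4 CPM for macrophages and leukocytes, 27.0 CPM for endothelium, 28.9 CPM for spermatogonia and 0.406 CPM for erythroid cells. No gene of these lists had 0 counts over all libraries. The smallest count of a member in any library was 990, for P4hb.

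The testis genes did not all outrank their general relatives. Per kilobase (kb) of annotated exon, Clgn stood highest of the 7, at 223 ± 38.4 CPM per kb (SD over the 10 libraries), above 99.3% of the genes ranked the same way. Calr followed at 121 ± 17.2 CPM per kb and Pdia3 at 117 ± 19.5 CPM per kb, and their ranges overlapped. Pdilt had 82.7 ± 25.7 CPM per kb, with a range that overlapped that of Pdia3 although it was lower than Pdia3 in 8 of 10 libraries. Canx had 24.0 ± 3.98 CPM per kb and Calr3 19.6 ± 7.38 CPM per kb, and these neighbours overlapped too. P4hb was lowest, at 5.63 ± 0.917 CPM per kb. The ranges did not overlap between Clgn and Calr, between Pdilt and Canx, or between Calr3 and P4hb.

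**Figure D1:**
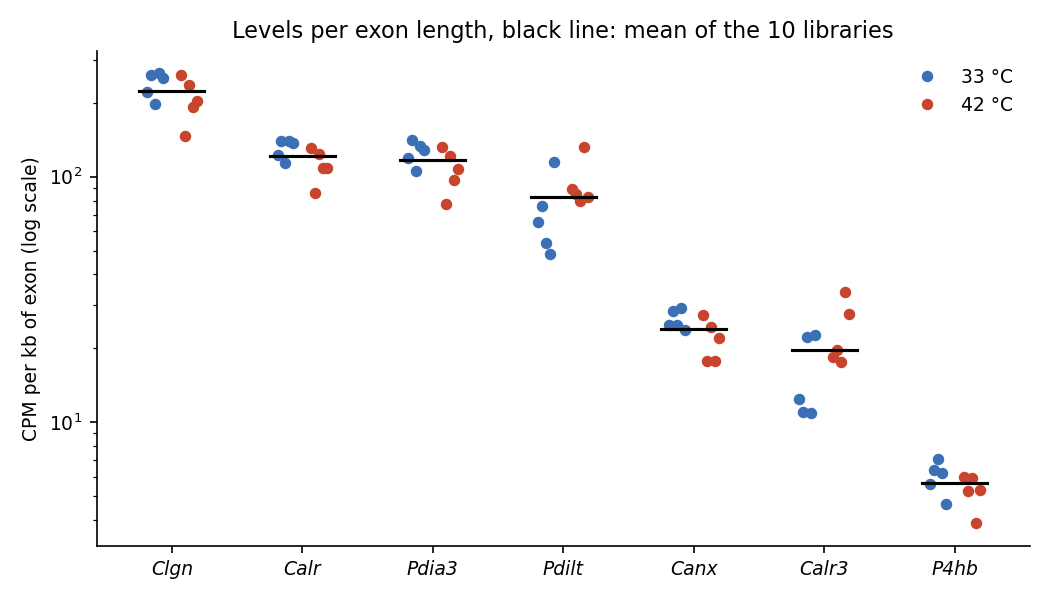
Levels of the 7 genes in CPM per kb of exon on a log axis, with 1 point per library (blue 33 °C, red 42 °C) and a black line at the mean of the 10 libraries. Clgn stood above all other genes of the set, and P4hb below all of them.

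Within each mouse, calmegin RNA exceeded calnexin RNA and Pdilt RNA exceeded P4hb RNA, while Calr3 RNA was below calreticulin RNA. Per kb, the Clgn level was 9.28 times that of Canx (geometric mean, range 7.95 to 10.9 over the 10 libraries). The Pdilt level was 14.3 times that of P4hb, from 7.56 to 34.3. The Calr3 level was 0.154 times that of Calr, from 0.0778 to 0.310. Each of these 3 orders held in 10 of 10 libraries, and in an exact two-sided sign-flip permutation test each gave p = 0.00195, which is the lowest possible over 10 libraries, and the same value when adjusted over the 3 pairs. With the length of the longest transcript in place of all exons the ratios were 8.73, 15.2 and 0.129.

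The genes lie on 4 chromosomes of GRCm38 and all are protein-coding. Clgn (ENSMUSG00000002190) spans bases 83389867 to 83428552 of chromosome 8 on the plus strand. The same chromosome holds Calr (ENSMUSG00000003814, 84841850 to 84846934, minus strand) and Calr3 (ENSMUSG00000019732, 72424176 to 72443870, minus strand). Pdilt (ENSMUSG00000030968) is on chromosome 7 from 119486587 to 119523489, minus strand. Chromosome 11 carries Canx (ENSMUSG00000020368, 50293961 to 50325673) and P4hb (ENSMUSG00000025130, 120560298 to 120573253), both on the minus strand. Pdia3 (ENSMUSG00000027248) is on chromosome 2 from 121413775 to 121438687, plus strand. Pdia3 shares 18 exonic bases with Catsper2 on the other strand, and Pdilt shares 104 with Acsm5 and 201 with Gm37518, also on the other strand. The libraries were stranded, but the strand setting of the counting is not given in the sources used here, so reads in these stretches cannot be assigned with certainty.

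The promoters of Calr and Canx hold the letters of the ER stress response element, the site through which the unfolded protein response raises ER chaperone genes, and so do those of the ER chaperones Hspa5 and Hsp90b1. RefSeq promoter windows on GRCm38.p6 of 300 bases, 250 before to 50 after the start, matched 6 of the 7 genes, all but Clgn, with 2 windows for Calr3. The element was searched on both strands as CCAAT, then 9 bases of any kind, then CCACG. It was found in 39 of 32851 such windows (0.119%), and 0 matches were found in the windows of Calr3, Pdilt, P4hb and Pdia3. The matches are shown on the strand of the motif, with the fixed letters in capitals.
Calr: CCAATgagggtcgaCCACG
Canx: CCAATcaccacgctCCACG
Hspa5: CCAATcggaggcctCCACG
Hsp90b1, first match: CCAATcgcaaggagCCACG
Hsp90b1, second match: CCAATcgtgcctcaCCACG

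Each match begins with a CCAAT box, so the element overlaps that motif, and CCAAT alone was present in 37.4% of all windows, among them those of all 6 genes. Neither the cyclic AMP element TGACGTCA (1.79% of windows) nor the heat shock element (GAA, TTC and GAA with 2 bases of any kind between neighbours, 0.603%) was found in any window of the 6 genes, on either strand. Upstream stretches of 101 bases, from base -200 to base -100 relative to the RefSeq start, show where the letters lie, with those of the Calr and Canx elements and the CCAAT box of Pdilt in capitals.
Calr, chr8:84847031-84847131, minus strand: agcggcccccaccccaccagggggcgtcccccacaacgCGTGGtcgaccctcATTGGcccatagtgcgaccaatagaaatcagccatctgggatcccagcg
Canx, chr11:50325773-50325873, minus strand: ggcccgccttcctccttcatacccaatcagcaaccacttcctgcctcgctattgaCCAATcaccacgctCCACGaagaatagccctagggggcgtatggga
Pdilt, chr7:119523582-119523682, minus strand: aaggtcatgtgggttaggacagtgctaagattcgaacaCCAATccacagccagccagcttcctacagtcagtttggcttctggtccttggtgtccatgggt
In Calr the element reads on the opposite strand of the gene, from base -162 to -144. In Canx it reads with the gene, from base -145 to -127. The match is to letters only and does not show that a factor binds there.

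None of the 7 genes passed the test between 42 °C and 33 °C. In the edgeR quasi-likelihood test with Benjamini-Hochberg adjustment, 0 of 7 had an adjusted p under 0.05, and 0 an unadjusted p under 0.05. DESeq2 and limma voom also called 0 of 7 after adjustment, with 1 and 2 of the 7 at an unadjusted p under 0.05. Both called more features than edgeR (257 higher and 31 lower with DESeq2, 124 and 29 with limma voom). Their own shares of all features at an unadjusted p under 0.05 were not computed. Over all 26025 tested features, edgeR called 0.0922% in either direction (0.0884% higher and 0.00384% lower at 42 °C), and 11.5% had an unadjusted p under 0.05. Calr3 and Pdilt had positive fitted log2 differences (42 °C minus 33 °C) and the other 5 negative ones, where 5788 of the 8493 genes with a mean of at least 10 CPM were also negative, with a median of -0.11. These are bulk samples, so fewer cells of a type and less RNA per cell cannot be told apart.

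Calr3 had the largest value of the set. Its level was 24.4, 21.5, 43.6, 21.4 and 44.4 CPM in 33 °C replicates 1 to 5, and 36.2, 38.5, 34.5, 66.3 and 54.3 CPM in 42 °C replicates 1 to 5. The groups overlapped because 33 °C replicates 3 and 5 lay above 3 of the heated libraries, and all 5 heated libraries were above the 33 °C mean. The means were 31.1 ± 11.9 CPM and 46.0 ± 13.9 CPM (SD, n = 5 each), a fitted log2 difference of 0.57 with SE 0.26 and a 95% interval of -0.0038 to 1.13 (edgeR adjusted p = 0.437). Without 42 °C replicate 4 it was 0.40 (edgeR adjusted p = 0.799), and without 33 °C replicate 5 it was 0.77 (edgeR adjusted p = 0.138).

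Pdilt had 149, 173, 122, 111 and 262 CPM at 33 °C and 204, 193, 182, 303 and 188 CPM at 42 °C, in the order of the replicate numbers. Its control libraries lay below all heated ones except 33 °C replicate 5, which was above 4 of them. The means were 163 ± 60.0 CPM and 214 ± 50.2 CPM (SD, n = 5 each), with a fitted log2 difference of 0.39 with SE 0.23 and a 95% interval of -0.11 to 0.89 (edgeR adjusted p = 0.489). Without 33 °C replicate 5 the value was 0.67 (edgeR adjusted p = 0.0914), and without 42 °C replicate 4 it was 0.23 (edgeR adjusted p = 0.802).

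The fitted value of Clgn was negative. Clgn had 894, 1045, 796, 1063 and 1019 CPM at 33 °C and 1042, 589, 952, 775 and 817 CPM at 42 °C. Only 42 °C replicate 1 exceeded the 33 °C mean, and 42 °C replicate 2 was the lowest of the 10. The means were 963 ± 115 CPM and 835 ± 174 CPM (SD, n = 5 each), with a fitted log2 difference of -0.21 with SE 0.16 and a 95% interval of -0.55 to 0.13 (edgeR adjusted p = 0.571). Without 42 °C replicate 2 it was -0.08 (edgeR adjusted p = 0.821), and without 33 °C replicate 2 it was -0.13.

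The general lectin chaperones also had negative values, and neither passed. Calr had 352, 402, 328, 404 and 395 CPM at 33 °C and 375, 247, 358, 314 and 312 CPM at 42 °C. All 5 heated libraries were under the 33 °C mean of 376 ± 34.2 CPM, and the 42 °C mean was 321 ± 49.7 CPM (SD, n = 5 each). The log2 difference was -0.23 (95% interval -0.51 to 0.05, edgeR adjusted p = 0.484). Canx had 117, 134, 117, 138 and 112 CPM at 33 °C and 128, 83.3, 114, 83.3 and 103 CPM at 42 °C. The heated libraries 2 and 4 were equally low and replicates 1 and 3 lay within the range of the controls. The means were 123 ± 11.5 CPM and 102 ± 19.5 CPM (SD, n = 5 each). Its log2 difference was -0.27 with SE 0.14 and a 95% interval of -0.57 to 0.03 (edgeR adjusted p = 0.464).

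The general disulphide isomerases followed. Pdia3 had 374, 442, 332, 420 and 403 CPM at 33 °C and 417, 243, 383, 306 and 338 CPM at 42 °C, with a fitted log2 difference of -0.23 with SE 0.15 and a 95% interval of -0.55 to 0.10 (edgeR adjusted p = 0.520). P4hb had 16.1, 18.2, 20.3, 17.8 and 13.3 CPM at 33 °C and 17.1, 15.01, 16.96, 11.1 and 15.2 CPM at 42 °C. Its log2 difference was -0.18 with SE 0.15 and a 95% interval of -0.52 to 0.15 (edgeR adjusted p = 0.603). In both genes the groups overlapped. The means were 394 ± 42.6 CPM and 337 ± 67.8 CPM for Pdia3, and 17.1 ± 2.63 CPM and 15.1 ± 2.44 CPM for P4hb (SD, n = 5 each). Without 42 °C replicate 2 the log2 differences were -0.12 for Calr, -0.18 for Canx, -0.10 for Pdia3 and -0.16 for P4hb. Pdia3 had -0.14 without 33 °C replicate 2. P4hb had -0.12 when either of 33 °C replicates 2 and 3 was left out, and leaving out 42 °C replicate 4 gave -0.09. With limma voom the values were -0.05 for Clgn, -0.10 for Calr, -0.14 for Canx, -0.08 for Pdia3 and -0.09 for P4hb.

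**Figure D2:**
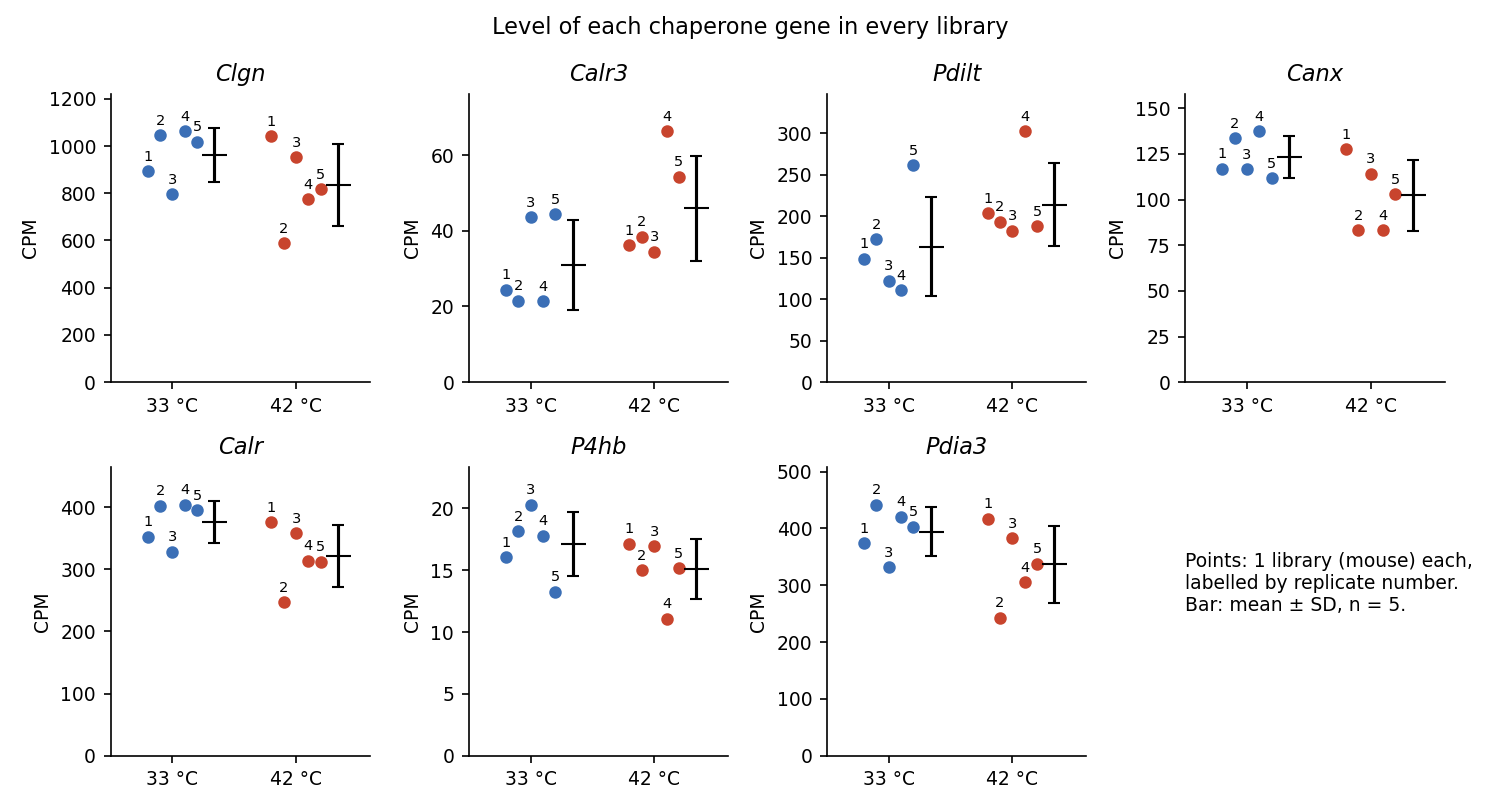
CPM of each gene in every library, with points labelled by replicate number and the mean ± SD of the 5 libraries of a group beside them. The groups overlap for all 7 genes, with Calr3 and Pdilt high in 42 °C replicate 4 and the other 5 genes below their 33 °C means there.

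The ratio of a testis gene to its general relative within a library does not depend on how libraries are scaled. Of the 3 ratios compared, none passed after adjustment. The count ratio of Calr3 to Calr was 0.0783 at 33 °C and 0.140 at 42 °C (geometric means), 1.79 times as high. It was between 0.0530 and 0.133 in the controls and between 0.0964 and 0.211 in the heated mice, and all 5 heated libraries exceeded the 33 °C mean. The exact two-sided permutation p was 0.0476, and 0.143 when adjusted over the 3 ratios.

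The ratio of Pdilt to P4hb had geometric means of 9.18 and 14.1, with 6.03 to 19.7 at 33 °C and 10.8 to 27.3 at 42 °C. Its exact permutation p was 0.159, and 0.238 when adjusted over the 3 ratios. Here 33 °C replicate 5 alone made the groups overlap. Without it the log2 difference was 0.90 (exact permutation p adjusted over the 3 ratios 0.0238). Leaving out that library separates the groups fully, which fixes the permutation p at its lowest possible value, so this is no further evidence. The log2 difference was 0.62 over all libraries and 0.38 without 42 °C replicate 4. The ratio of Clgn to Canx hardly varied, from 6.82 to 9.12 at 33 °C and from 7.07 to 9.31 at 42 °C, with an exact permutation p of 0.548 before and after adjustment.

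**Figure D3:**
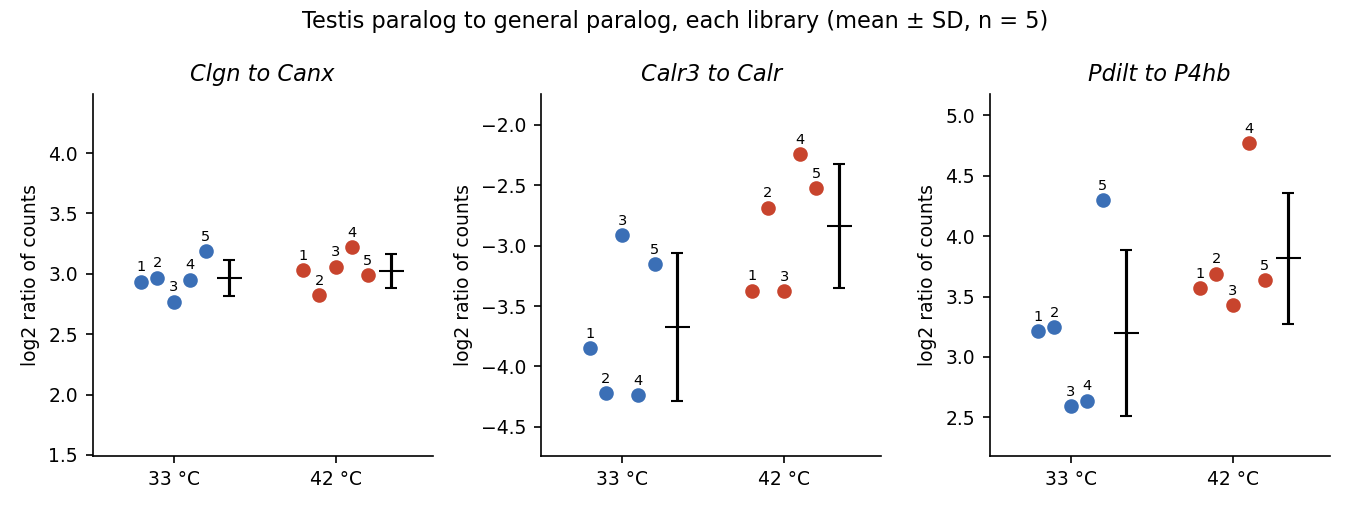
Log2 ratio of counts of testis to general paralog in each library, with replicate numbers and the mean ± SD of 5 libraries, on axes that each span 3 log2 units. The Clgn to Canx ratio lies within a narrow band in both groups, while the other ratios spread over more than 1 log2 unit within each group.

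Stage markers were read against the same background, in which 5788 of 8493 genes were negative with a median of -0.11. The fitted values were positive for 14 of 15 elongating spermatid markers (median 0.34) and for 14 of 18 round spermatid markers (median 0.31). Among 20 genes marking spermatocytes, 13 had negative values (median -0.11), which is near that background. No marker of these stages was called by edgeR, DESeq2 or limma voom, and the unadjusted edgeR p was under 0.05 in 3 elongating and 2 round spermatid markers, all higher, and in 3 spermatocyte markers, all lower, against 11.5% of all features. The summed markers of elongating spermatids ran from 5561 to 8299 CPM at 33 °C and from 5274 to 11360 CPM at 42 °C, and those of spermatocytes from 1337 to 1778 CPM and from 1072 to 1495 CPM. In 33 °C replicate 5 and 42 °C replicate 4, where Pdilt was highest, the summed round spermatid markers were 6947 and 7059 CPM, the highest of their groups. The part of stage make-up in the values of Calr3 and Pdilt was not tested.

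The correlation of the members across the 10 mice was computed pair by pair. Of the 21 pairs of genes, 9 had a Pearson correlation of log2 CPM with a permutation p under 0.05 after adjustment over the 21, of which 7 were positive and 2 negative. The permutation ran over all 10 mice across both groups, so a difference between the temperatures also enters these p-values. With each group centred on its own mean, r of the 7 positive pairs ran from 0.66 to 0.99. The share of all gene pairs that would pass was not computed, so the count cannot be read as a trait of this set. The 7 positive pairs were the 6 among Clgn, Canx, Calr and Pdia3, and the pair of Canx and P4hb. The closest was Clgn with Pdia3, with r of 0.99 (permutation p = 1e-05, the smallest it can give, adjusted p = 0.00021) and Spearman's rho of 0.99 (permutation p = 3e-05, adjusted p = 0.00063). It stayed at 0.98 without the 2 libraries farthest from the median of Clgn, 42 °C replicates 2 and 4, and was 0.99 with each group centred on its own mean. All values are CPM of the same libraries, so they share the scaling.

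Clgn and its relative Canx had a lower r of 0.86 (permutation p = 0.00064, adjusted p = 0.00235), with a rho of 0.84 (permutation p = 0.00367, adjusted p = 0.0154) and an r of 0.71 without the same 2 libraries. Pdilt and P4hb ran against each other, with r of -0.85 (permutation p = 0.00192, adjusted p = 0.00576), rho of -0.78 (permutation p = 0.0099, adjusted p = 0.0231), and -0.82 both without 33 °C replicate 4 and 42 °C replicate 4 and with centred groups. Calr3 and Canx had r of -0.73 (permutation p = 0.0169, adjusted p = 0.0414) and rho of -0.85 (permutation p = 0.00318, adjusted p = 0.0154). That r was -0.59 with centred groups. It was -0.49 without 33 °C replicate 4 and 42 °C replicate 4, so it rests in part on these libraries. Calr3 and Pdilt did not pass, with r of 0.65 (permutation p = 0.0401, adjusted p = 0.0842), rho of 0.70 (permutation p = 0.0307, adjusted p = 0.0599), and r of 0.25 without those 2 libraries.

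**Figure D4:**
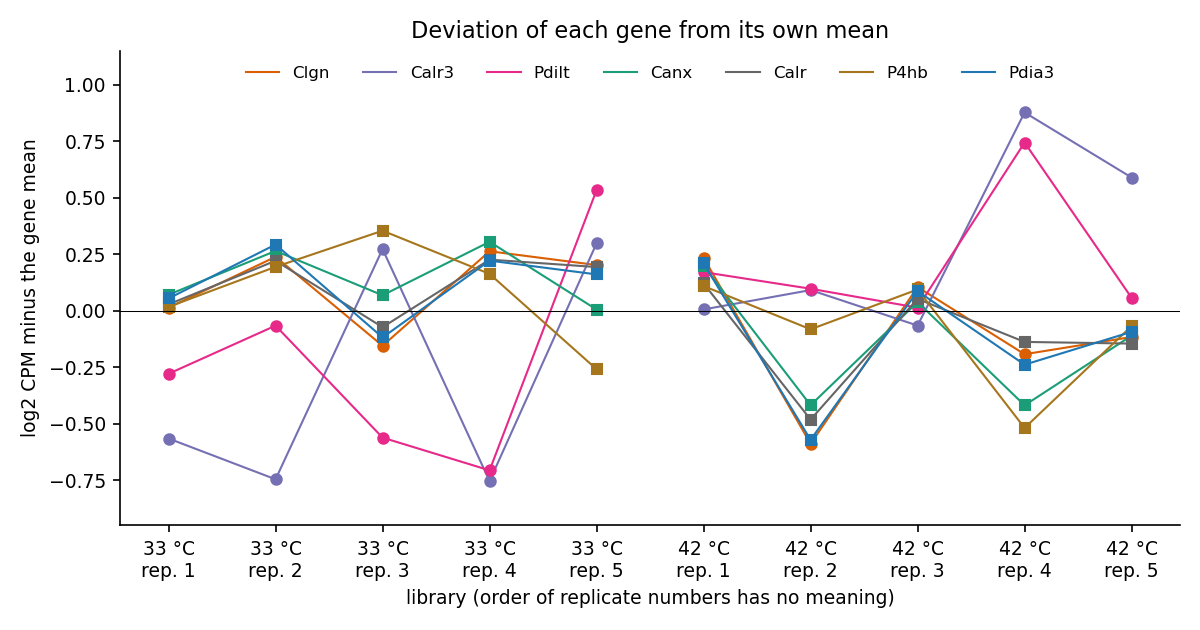
Log2 CPM of each gene minus its own mean in the 10 libraries, with circles for testis genes and squares for general paralogs. Clgn, Calr and Pdia3 all have their lowest value in 42 °C replicate 2, whereas Calr3 and Pdilt peak in 42 °C replicate 4.

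Genes with the most similar profile were sought among 8493 genes with a mean of at least 10 CPM, by the root mean square difference of centred log2 CPM over the 10 libraries. For Clgn they were Ldhal6b (0.0348 log2 units), a relative of lactate dehydrogenase, and Pdia3 (0.0364). The other relatives ranked lower, with Calr at rank 90 and Canx at rank 1677 for Clgn. For Canx, Calr came at rank 1090 and P4hb at rank 2800. Likeness of the degree seen in these 4 pairs was thus shared by many of the genes compared. Clgn was at rank 5 for Pdia3, whose nearest were Aldh1a2 (0.0283), an enzyme of retinoic acid synthesis, and Taf12 (0.0301). Pdilt was nearest to Sgms2 (0.0417), a sphingomyelin synthase, and Adam24 (0.0517). Calr3 was nearest to Ccin (0.0712), a cytoskeletal protein of the sperm head, and Mrps36 (0.0716). The nearest of Calr were Zfp91 (0.0337) and D1Pas1 (0.0405), those of Canx were Smc6 (0.0321) and Fyttd1 (0.0338), and that of P4hb was Cyb5b (0.0480).

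The other genes of the lectin cycle trim the sugars, send misfolded proteins back or sort them. Of 17 tested, edgeR called 0 (unadjusted p under 0.05 in 1, higher, against 11.5% of all features), with 14 negative values and a median of -0.08. Calr4, a further calreticulin relative at 0.193 ± 0.0912 CPM at 33 °C and 0.530 ± 0.177 CPM at 42 °C (SD, n = 5 each), had a fitted log2 difference of 1.45 with SE 0.34 (adjusted p = 0.220 in edgeR). It passed with DESeq2 (adjusted p = 0.0115) and limma voom (adjusted p = 0.0445), which called no other gene of this list. Over all 26025 tested features they called 257 and 124 higher. Mlec, a lectin of early glycan chains, had -0.26 with SE 0.13 (adjusted p = 0.453 in edgeR), -0.15 without 42 °C replicate 2 and -0.17 without 33 °C replicate 2 or with limma voom. Uggt1, the glucosyltransferase that returns unfolded glycoproteins to calnexin and calreticulin, had 5.10 ± 0.582 CPM and 5.18 ± 1.06 CPM (SD, n = 5 each), a fitted log2 difference of 0.022, and of -0.072 without 42 °C replicate 2. Its relative Uggt2 had 52.7 ± 4.86 CPM and 47.1 ± 5.87 CPM.

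Of 18 tested members of the wider PDI family and its oxidases, edgeR, DESeq2 and limma voom each called 0 after adjustment. With edgeR the unadjusted p was under 0.05 in 1, higher, against 11.5% of all features. With DESeq2 it was under 0.05 in 2, both higher, and with limma voom in 2 higher and 1 lower. The median was -0.02 (0.01 without 42 °C replicate 2). The other 4 of the 22 listed were too low to be tested. Tmx2, a membrane-bound thioredoxin relative, had a fitted log2 difference of 0.44 with SE 0.18 (adjusted p = 0.420 in edgeR), and Prdx4, the ER peroxiredoxin, of 0.48 with SE 0.24 (adjusted p = 0.456 in edgeR). Pdia6 had -0.32 (SE 0.17), and -0.19 without 42 °C replicate 2. Ero1lb, which passes disulphides to PDI proteins, averaged 301 ± 28.7 CPM in controls and 274 ± 32.7 CPM in heated mice, against 4.48 ± 0.921 CPM and 5.71 ± 1.03 CPM for its relative Ero1l (SD, n = 5 each).

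Among 18 ER HSP70 and HSP90 chaperones, their partners and stress regulators, edgeR called 0. The unadjusted p was under 0.05 in 1 higher and 1 lower, against 11.5% of all features. In this list 14 values were negative with a median of -0.13 (-0.08 without 42 °C replicate 2). Hsp90b1, the ER HSP90, averaged 656 ± 104 CPM in controls and 500 ± 121 CPM in heated mice (SD, n = 5 each), a fitted log2 difference of -0.39 with SE 0.18 (adjusted p = 0.430 in edgeR), and -0.28 without 42 °C replicate 2. Hspa5, the ER HSP70 known as BiP, had -0.33 with SE 0.19 (adjusted p = 0.490 in edgeR), and -0.18 without that library. With limma voom the values were -0.20 for Hsp90b1 and -0.14 for Hspa5. Ern1, the stress sensor IRE1, lay between 1.54 and 2.18 CPM at 33 °C and between 2.29 and 3.54 CPM at 42 °C. It was the 1 gene of these 4 lists whose groups did not overlap, where 2.0% of all features had groups that did not overlap, 1.32% higher and 0.68% lower at 42 °C. Its log2 difference was 0.60 with SE 0.18 (adjusted p = 0.348 in edgeR). It passed with DESeq2 alone (adjusted p = 0.0423), which called 257 features higher in all. Across 25 tested genes with the ER stress element letters in a promoter window, 15 had negative values and the median was -0.07. Of these 25, edgeR called 0, with 3 at an unadjusted p under 0.05, against 11.5% of all features.

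Genes listed as clients of the testis chaperones or as wider partners in sperm had mixed signs. Of 18 tested, 10 were positive and 8 negative, and the median was 0.12 (0.19 without 42 °C replicate 2). After adjustment edgeR, DESeq2 and limma voom each called 0. With edgeR the unadjusted p was under 0.05 in 3, all higher, against 11.5% of all features. With DESeq2 it was under 0.05 in 4, all higher, and with limma voom in 7 higher and 1 lower. Adam3, whose protein matures with all 3 testis chaperones, averaged 1465 ± 141 CPM in controls and 1334 ± 256 CPM in heated mice (SD, n = 5 each), a fitted log2 difference of -0.13 with SE 0.15 (adjusted p = 0.688 in edgeR), and 0.013 without 42 °C replicate 2. Leaving out 33 °C replicate 2 gave -0.053, leaving out replicate 5 of that group gave -0.068, and limma voom gave -0.022. Adam1a and Adam2 encode the subunits of fertilin, whose pairing needs calmegin. Adam2 had -0.21 with SE 0.14 (adjusted p = 0.520 in edgeR), -0.092 without 42 °C replicate 2, -0.13 without 33 °C replicate 2 and -0.082 with limma voom. Adam1a had 0.28 with SE 0.22 (adjusted p = 0.576 in edgeR). Leaving out 42 °C replicate 4 gave 0.15 for this gene and leaving out 33 °C replicate 5 gave 0.54, while it had 0.19 when 33 °C replicate 3 was dropped and 0.18 when replicate 4 of that group was. Adam1b, the other gene for the alpha subunit, had the opposite sign, with -0.29 and SE 0.16 (adjusted p = 0.480 in edgeR), and -0.15 without 42 °C replicate 2. Adam4 had 0.90 with SE 0.29 (adjusted p = 0.369 in edgeR) and Adam6b 0.85 with SE 0.29 (adjusted p = 0.374 in edgeR), with control libraries that overlapped the heated ones.

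**Figure D5:**
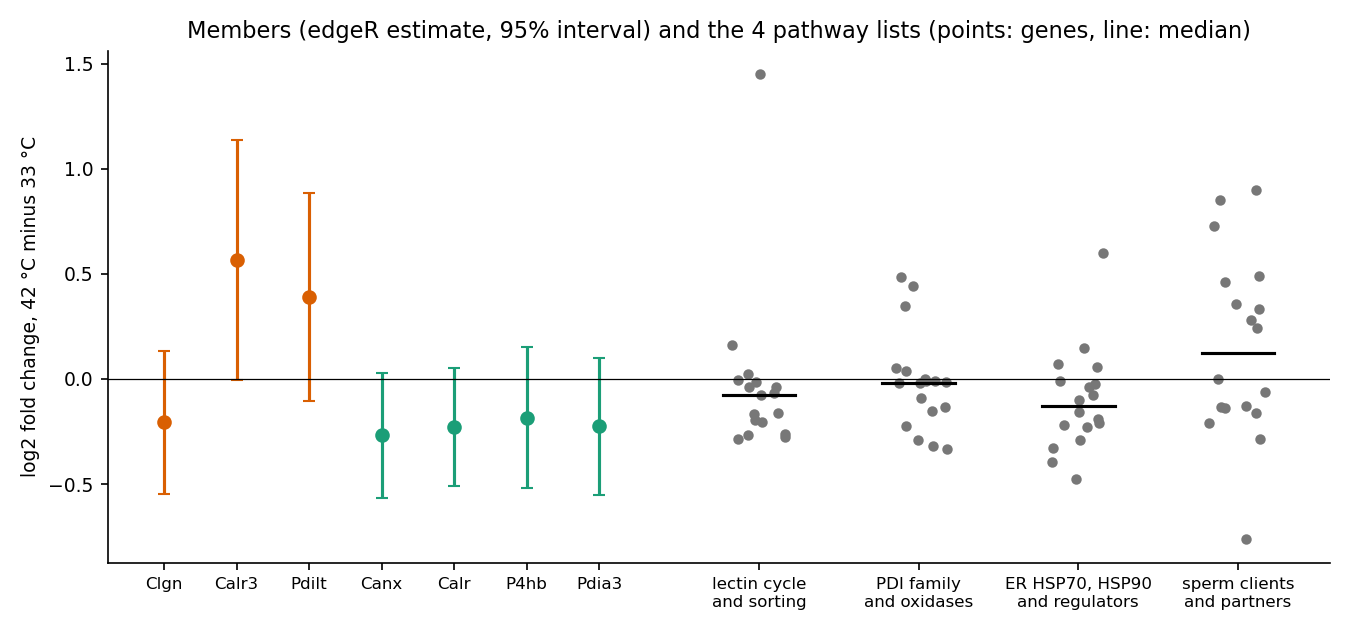
Log2 fold change, 42 °C minus 33 °C, of the 7 genes with the 95% interval of the edgeR fit (orange testis genes, green general paralogs), and of the tested genes of 4 related lists as grey points with a line at the median. All 7 intervals include 0, and the medians of the lists lie between -0.13 and 0.12.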

How the data were processed

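Raw, unnormalized read counts were deposited by the authors in a single table, for 55401 genes and 1146 subfamilies of transposable elements. The table holds whole numbers only, with a different total for each library. Per the labels' protocols, RNA was depleted of ribosomal RNA and libraries were stranded. Per the submitters' processing notes, the build was GRCm38 or mm10, and the tools named are DRAGEN, cutadapt and Trim Galore, with no roles. How reads with more than 1 alignment were counted, and by which tool, is not given in the sources used here, and reads shared by paralogs or pseudogenes could be divided in ways that alter the levels.

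The 7 members and all lists were chosen with earlier results of these data known. Features were tested by quasi-likelihood in edgeR 4.0.16 (R 4.3.3), with group as the sole term, TMM factors and filterByExpr (minimum count 10, minimum total 15), which kept 26025 features, all 7 members among them. P-values were Benjamini-Hochberg adjusted over all of them at a threshold of 0.05. DESeq2 1.42.0 and limma 3.58.1 (voom with sample quality weights) were alternatives, beside other scalings and filters, a replicate block and leaving out each library. Exon lengths and positions came from GENCODE M21, where 99.4% of 55141 shared gene identifiers had the same position. The script was tested on simulated data, with 50 changed features for each size of change. There edgeR recovered 5 of 50 at 1.5 times, 30 at 2 times, 50 at 4 times and 21 at 0.5 times. A change of 1.5 times would thus mostly be missed. Intervals are those of the edgeR fit. The p-values measure the spread between mice. The closest libraries of a group, 42 °C replicates 1 and 3, had a chi-square of 13.9 for each degree of freedom, so none was counted as a copy. They were much more alike than the next closest pair, 33 °C replicates 1 and 4, at 52.6. The cause of this likeness was not tested.

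Named beyond the members were Hspa5, Hsp90b1, Uggt1, Adam1a, Adam2 and Adam3, the 2 tested genes of smallest p in each of 4 pathway lists, and the 2 genes most like each member, of which 1 is not reported here. Uggt2, Pdia6, Ero1l, Ero1lb and Adam1b were named after their values were seen. Where a symbol had several identifiers, the lowest was used.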

Additional observations from a re-analysis of the deposited data

Results flagged for a closer look

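Pdilt in 42 °C replicate 4 stood apart from the other 4 heated libraries, at 303 CPM against 182 to 204 CPM. In the same library the log2 count ratio of Pdilt to P4hb was 4.77, also far from the other 4 of its group. Of 20 groups of 5 values checked this way, for 7 genes and 3 ratios at each temperature, these 2 had a gap to the nearest library above the 95% limit for a single far value, and chance alone gives about 1 in 20. The 2 flags share Pdilt and the library and are not independent.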

How the results depend on the processing

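None of the 7 genes changed the sign of its log2 fold change or passed the test in any of the 18 alternatives run, whose values ran from -0.30 to -0.05 for Clgn, 0.40 to 0.77 for Calr3, 0.23 to 0.67 for Pdilt, -0.36 to -0.14 for Canx, -0.29 to -0.10 for Calr, -0.24 to -0.09 for P4hb and -0.32 to -0.08 for Pdia3. The per-length orders of the 3 pairs held in all 11 alternatives each. Leaving out 1 library moved the log2 difference of the Pdilt to P4hb ratio between 0.38 and 0.90. Its adjusted p was under 0.05 only without 33 °C replicate 5, the library that alone made the groups overlap. Uggt1 turned to -0.15 with limma voom, and ran from -0.072 (without 42 °C replicate 2; -0.012 without 33 °C replicate 4) to 0.073 when 1 library was left out, and Adam3 from -0.18 to 0.013 (without 42 °C replicate 2). Over all features, 23 were called higher and 1 lower by edgeR, against 257 and 31 with DESeq2, 124 and 29 with limma voom, 73 and 3 with no filter, 15 and 1 with library totals, 2 and 0 with a mean of at least 1 CPM, and 10 to 21 and 0 to 2 when 1 library was left out. The higher calls dropped most without 33 °C replicate 1 (12), 33 °C replicate 4 (10), 42 °C replicates 1 and 4 (15 each) and 42 °C replicates 2 and 5 (14 each). The cause was not tested. With the replicate number as a block, 4 were called higher and 0 lower. Same-numbered libraries did not deviate together (correlations from -0.70 to -0.07, with 0 of 5 numbers matching best). The labels do not say whether same-numbered mice were handled together, and these correlations cannot exclude it. With that block the ratio tests could not reach 0.05 over 5 pairs (log2 difference 0.84 for Calr3 to Calr, 0.62 for Pdilt to P4hb and 0.06 for Clgn to Canx).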
